A study of Bos taurus with 17 samples.

Results

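Ruminant trophoblast products and later trophoblast genes were followed across 17 pools of bovine morulae. The members were the rows of the deposited table whose symbol was IFNT, IFNT2, PAG2, TKDP1, HAND1, DLX3, ATP12A, PLAC8, PTGS2 or DAB2. Of these 10 symbols 9 matched, each to 1 row, so that 9 of 17167 genes are described. PLAC8 was not analysed here under that symbol. Stranded messenger RNA libraries were sequenced from 9 control pools and from 8 pools cultured with recombinant WNT5A, a secreted ligand of the WNT pathway. Every pool held 10 bovine (Bos taurus) preimplantation embryos that had developed in vitro to the morula stage. The labels give neither the concentration nor the timing of WNT5A, nor do they tie pools to fertilisation rounds. The p-values therefore measure only the spread between these pools, which may be technical. The comparison asks how WNT5A altered the morula transcriptome.

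The trophectoderm is the outer epithelium of the blastocyst and gives rise to the placenta. In ruminants it secretes interferon tau, the type I interferon by which the conceptus signals its presence to the uterus before attachment. The elongating ruminant trophoblast later makes pregnancy-associated glycoproteins, which belong to the aspartic protease family, and trophoblast Kunitz domain proteins, which resemble protease inhibitors. The morula precedes all of this, since its outer cells are only beginning to form an epithelium.

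Libraries held 34.0 to 200.1 M reads, as recovered from the RPKM values, with 125 to 162 M in controls. WNT5A pools 4, 12 and 14 had 34.0 to 52.4 M reads, below all other pools. Control pools 2, 3 and 6 had reads in 10055 to 11268 genes, although their read totals were like those of the other 6 controls, which had reads in 13587 to 15430 genes. Of all genes, 51.2% to 57.0% reached 0.5 RPKM in these 3 controls, against 68.9% to 75.1% in the other 6 and 69.7% to 75.4% in WNT5A pools. The pluripotency factor gene POU5F1, which marks embryonic cells of this stage, stood at 1125 to 2360 RPKM over all 17 pools. Values without these 6 libraries stand beside the members' differences.

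DAB2 and PTGS2 were the abundant members, and the secreted trophoblast products were scarce and uneven between pools. By mean RPKM in controls DAB2 ranked 1575 of 17167 genes and PTGS2 ranked 4962. IFNT (8521), DLX3 (9373) and PAG2 (9521) ranked in the middle of the table, followed by HAND1 (11989), ATP12A (13170), TKDP1 (13570) and IFNT2 (14158). DAB2 was above PTGS2 in every pool, since its lowest value of 56.1 RPKM exceeded the highest PTGS2 value of 29.4 RPKM. In WNT5A pools PTGS2 (8.54 to 27.8 RPKM) also lay above IFNT (0.676 to 2.83 RPKM) without overlap, whereas in controls their ranges overlapped. The ranges of the other 7 members overlapped one another in both groups. Members were not compared within pools, so the order from IFNT downwards was not tested. In bulk pools fewer cells that express a gene and less messenger RNA per cell cannot be told apart.

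**Figure D1:**
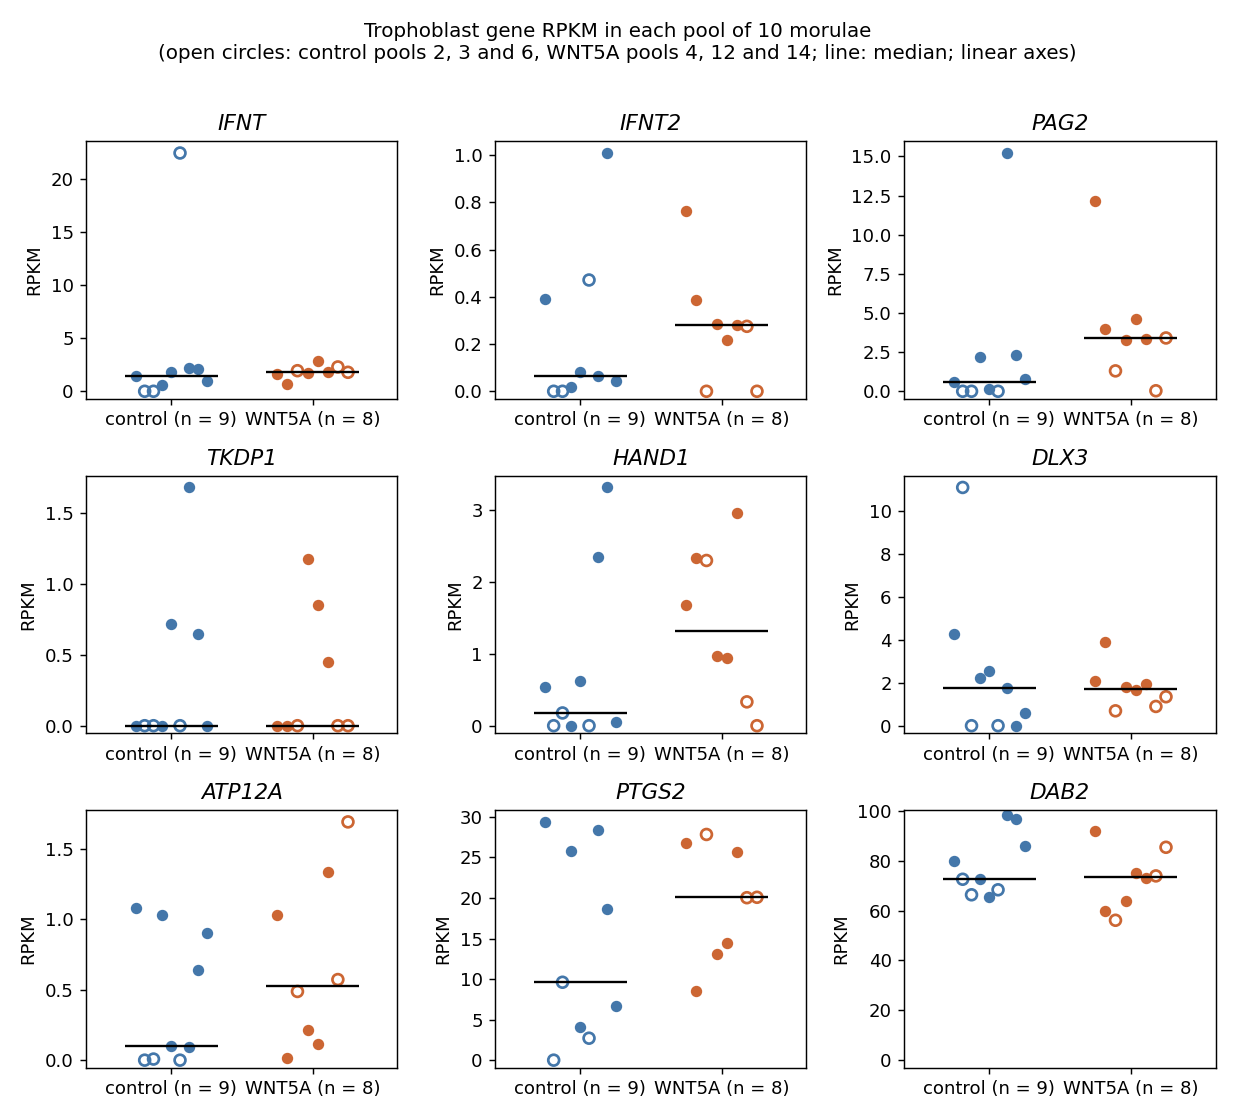
RPKM of the 9 trophoblast genes (linear axes, a scale of its own for each gene) in each of 9 control and 8 WNT5A pools. Open circles are control pools 2, 3 and 6 and WNT5A pools 4, 12 and 14, and lines are group medians. The groups overlapped for every gene, and single pools stood far above the rest for IFNT (22.4 RPKM) and PAG2 (15.2 RPKM) in controls.

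No member passed the test between WNT5A and control pools. The filter on low values was passed by 7 members, and TKDP1 and IFNT2 fell below it. Of the 7 tested, 0 had a limma adjusted p under 0.05, where 0.00805% of all 12415 genes tested were called (1 gene, ENSBTAG00000027786, named after its values were seen and without a symbol in the table). At an unadjusted p under 0.05 there were also 0 of 7, against 7.35% of all genes tested. Fitted log2 differences were above 0 for 6 of the 7, with a median of 0.22, beside 62.3% above 0 and a median of 0.11 for all genes tested. Quantile normalization moved the median of all genes from 0.11 to -0.01, and IFNT, DLX3 and ATP12A then fell below 0. The authors' deposited table listed none of the 9 members at FDR under 0.05, where it listed 1.01% of all genes (173). The smallest FDR of a member in the authors' deposited table was 0.844, for PAG2.

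Interferon tau messenger RNA was present at low levels in most pools. IFNT (ENSBTAG00000048549) has 1 exon of 1174 bases. In controls it ran from 0 through a median of 1.47 to 22.4 RPKM, and in WNT5A pools from 0.676 through a median of 1.79 to 2.83 RPKM. Control pool 6 alone held the high value, with 3443 reads, and control pools 2 and 3 held no read, which allows at most 0.0159 and 0.0178 RPKM. All 8 WNT5A pools lay inside the range of the controls. With control pool 6 included, the mean was higher in controls, at 3.50 ± 7.14 RPKM (SD, n = 9), than in WNT5A pools, at 1.83 ± 0.611 (SD, n = 8). On the log scale the difference had the other sign, 0.11 ± 0.46 (SE; limma adjusted p = 0.955, 95% interval -0.84 to 1.06). It became 0.51 without control pool 6. Without either control pool 2 or control pool 3 it was -0.06, and without the 6 libraries named above 0.12.

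IFNT2 (ENSBTAG00000053027), a single-exon interferon tau gene of 1313 bases, was scarcer. It ran from 0 through a median of 0.0635 to 1.01 RPKM in controls and from 0 through a median of 0.279 to 0.762 RPKM in WNT5A pools. Reads were found in 7 of 9 controls and 6 of 8 WNT5A pools, with at most 168 reads in a pool. Controls 2 and 3 and WNT5A pools 4 and 14 held none. With no filter the log2 difference was 0.07 ± 0.15 (SE; limma adjusted p = 0.908), where 0% of 17167 genes were called. Without the 6 libraries named above it was 0.16.

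The table carries 3 further interferon tau rows, IFNT3, IFN-tau-c1 and IFN-TAU, which are not members. The copies are closely related in sequence, so reads may have been split between them and each row's level is uncertain. Summed over the 5 rows, interferon tau had a control mean of 6.08 ± 8.54 RPKM (SD, n = 9) and a WNT5A mean of 6.84 ± 2.53 RPKM (SD, n = 8). The sum ran from 0.0106 through a median of 3.47 to 28.1 RPKM in controls, and from 3.93 through a median of 6.54 to 10.5 RPKM in WNT5A pools. IFNT supplied 79.7% of the sum in control pool 6, and 14.8% to 45.6% in the WNT5A pools. IFNT3 was the row with reads in most pools (16 of 17), with a control mean of 1.95 ± 1.74 RPKM (SD, n = 9), a WNT5A mean of 3.28 ± 1.56 RPKM (SD, n = 8) and a log2 difference of 0.69 ± 0.37 (SE; limma adjusted p = 0.690). It averaged 4.53 RPKM in WNT5A pools 4, 12 and 14 and 2.53 in the other 5, and its difference was 0.24 without these pools and control pools 2, 3 and 6.

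IFN-tau-c1 is singled out here after its values were seen. It had reads in 4 of 9 controls and 7 of 8 WNT5A pools, at 0.115 ± 0.321 RPKM (SD, n = 9) and 1.33 ± 1.46 RPKM (SD, n = 8). The highest control, pool 1, held 0.970 RPKM, and the highest WNT5A pools were 12 (4.37 RPKM) and 14 (2.45 RPKM). In the authors' deposited table it had a log2 fold change of 6.59 and an FDR of 0.0136. With no filter the log2 difference was 0.89 ± 0.28 (SE) and did not pass (limma unadjusted p = 0.00437, adjusted p = 0.650). It was 0.65 without WNT5A pools 4, 12 and 14, 0.60 without these and control pools 2, 3 and 6, and 0.45 after quantile normalization (limma unadjusted p = 0.155). With the replicate block, on the 8 pools whose numbers occur in both groups, it was 0.52. IFN-TAU was scarcer, with mean levels of 0.292 RPKM in controls and 0.121 RPKM in WNT5A pools.

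**Figure D2:**
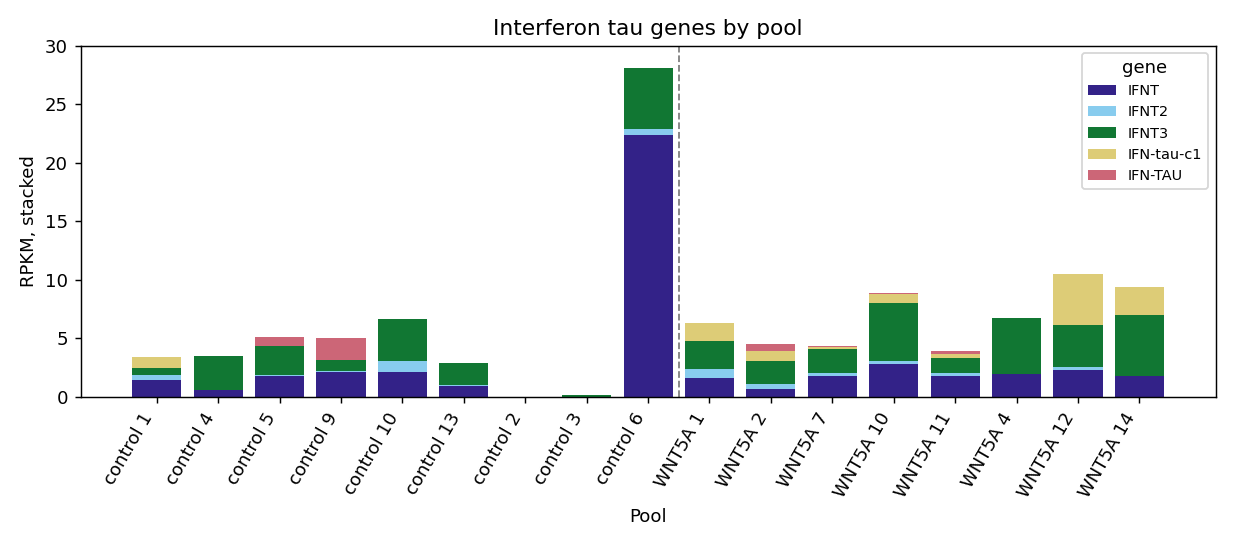
RPKM of the 5 interferon tau rows, stacked, in each pool, with controls left and WNT5A pools right of the dashed line. Control pools 2, 3 and 6 stand last among the controls, and WNT5A pools 4, 12 and 14 last among the treated. Control pool 6 reached 28.1 RPKM, mostly IFNT, while the 8 WNT5A pools lay between 3.93 and 10.5 RPKM.

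PAG2 and TKDP1 represented the later secreted products. PAG2 (ENSBTAG00000033096), an early-appearing pregnancy-associated glycoprotein gene with 12 merged exons, ran from 0 through a median of 0.609 to 15.2 RPKM in controls. In WNT5A pools it ran from 0.0318 through a median of 3.38 to 12.2 RPKM. Control pool 9 and WNT5A pool 1 held the high values, with 2855 and 2455 reads. Control pools 2, 3 and 6 held no read, which allows at most 0.0131 to 0.0161 RPKM, and WNT5A pool 12 held 2 reads. Of the 8 WNT5A pools 7 were above the control median, and the groups overlapped throughout.

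The log2 difference of PAG2 was 1.004 ± 0.53 (SE; limma adjusted p = 0.686, 95% interval -0.09 to 2.095), with means of 4.02 ± 3.62 RPKM under WNT5A (SD, n = 8) and 2.36 ± 4.91 RPKM without it (SD, n = 9). It was 0.50 without control pools 2, 3 and 6, the controls with fewer genes detected, and was 1.54 without WNT5A pools 4, 12 and 14 (limma unadjusted p = 0.0168, adjusted p = 0.992). Leaving out all 6 gave 1.03. Leaving out control pool 9 alone gave 1.38, with the smallest p of any member under the alternatives (limma unadjusted p = 0.00387, adjusted p = 0.435). Over all alternatives its adjusted p was 0.435 to 0.9999.

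TKDP1 (ENSBTAG00000018122), a Kunitz domain protein gene, had no reads in most pools. It had reads in 3 of 9 controls, namely pool 9 (1.68 RPKM), pool 5 (0.717 RPKM) and pool 10 (0.646 RPKM). It also had reads in 3 of 8 WNT5A pools, namely pool 7 (1.18 RPKM), pool 10 (0.852 RPKM) and pool 11 (0.449 RPKM). In the other 11 pools a count of 0 allows at most 0.00780 to 0.0405 RPKM. Means were 0.339 ± 0.584 RPKM (SD, n = 9) and 0.310 ± 0.471 (SD, n = 8), and the log2 difference with no filter was -0.01 ± 0.22 (SE; limma adjusted p = 0.995). Without control pools 2, 3 and 6 and WNT5A pools 4, 12 and 14 the difference was 0.02. The 6 pools with reads held 133 to 461 each.

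Among 33 other placental products listed, 6 had rows and 2 were tested. These were IFNT3, above, and SSLP1, with a control mean of 7.54 ± 5.81 RPKM (SD, n = 9), a WNT5A mean of 8.496 ± 6.186 RPKM (SD, n = 8) and a log2 difference of 0.17 ± 0.43 (SE; limma adjusted p = 0.921). The difference of SSLP1 was -0.02 without WNT5A pool 1, 0.52 without control pools 2, 3 and 6, 0.50 without WNT5A pools 4, 12 and 14, and 0.85 without all 6. The glycoprotein genes PAG1 (11 pools with reads), PAG10 (5 pools) and PAG11 (2 pools) and the prolactin-related gene PRP6 (1 pool) fell below the filter.

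The transcription factors HAND1 and DLX3 were low and had no reads in several controls. HAND1 (ENSBTAG00000002335), a basic helix-loop-helix factor required for trophoblast giant cells in the mouse, ran from 0 through a median of 0.178 to 3.32 RPKM in controls. In WNT5A pools it ran from 0 through a median of 1.33 to 2.96 RPKM. Control pools 2, 4 and 6 and WNT5A pool 14 held no read, which allows at most 0.0104 to 0.0326 RPKM. Of the WNT5A pools 7 of 8 were above the control median, but control pool 10 was above all of them and control pool 9 above all but 1. The log2 difference was 0.54 ± 0.35 (SE; limma adjusted p = 0.721, 95% interval -0.18 to 1.26). It was 0.28 without control pools 2, 3 and 6, 0.54 without these and WNT5A pools 4, 12 and 14, and 0.14 after quantile normalization. Without WNT5A pools 4, 12 and 14 alone it was 0.81 with a 95% interval of 0.02 to 1.599 (limma unadjusted p = 0.0459, adjusted p = 0.992).

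DLX3 (ENSBTAG00000017409), a homeobox factor needed for placental development in the mouse, ran from 0 through a median of 1.76 to 11.1 RPKM in controls. In WNT5A pools it ran from 0.694 through a median of 1.73 to 3.89 RPKM. Control pool 2, which held no read of 7 other members, held the highest DLX3 value with 4619 reads. Control pools 3, 6 and 10 held none. The medians of the groups were alike, and the log2 difference was 0.12 ± 0.44 (SE; limma adjusted p = 0.9499, 95% interval -0.79 to 1.02). The mean was higher in controls, at 2.50 ± 3.54 RPKM (SD, n = 9), than in WNT5A pools, at 1.79 ± 0.980 (SD, n = 8). The log2 difference was -0.05 when control pool 3, 6 or 10 was left out, and 0.40 without control pool 2. Without control pools 2, 3 and 6 it was 0.07, and 0.33 when WNT5A pools 4, 12 and 14 were left out as well.

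Of 10 rows for the DLX family and the partners of HAND1, 8 were tested, 5 had log2 differences above 0 and 3 below, and none passed. Their median was 0.33, beside 0.11 for all genes tested and 0.09 for the same list after quantile normalization. TCF12, an E protein that pairs with helix-loop-helix factors, had the smallest p, with a log2 difference of 0.91 ± 0.41 (SE; limma adjusted p = 0.676). DLX6, another member of the DLX family, had 0.72 ± 0.39 (SE; limma adjusted p = 0.690). Without the 6 libraries each had 0.28. TCF12 averaged 0 RPKM in control pools 2, 3 and 6, 2.02 in the other 6 controls, 4.52 in WNT5A pools 4, 12 and 14 and 2.22 in the other 5. HAND2 was tested as well, at 4.44 RPKM in controls and 3.36 in WNT5A pools. Its log2 difference was -0.002 ± 0.53 (SE; limma adjusted p = 0.999). Both HAND2 means were raised by the 6 libraries. Its mean level was 11.1 RPKM over control pools 2, 3 and 6, but 1.10 RPKM over the remaining 6 controls. Over WNT5A pools 4, 12 and 14 the HAND2 mean was 6.48 RPKM, but 1.49 RPKM over the remaining 5.

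**Figure D3:**
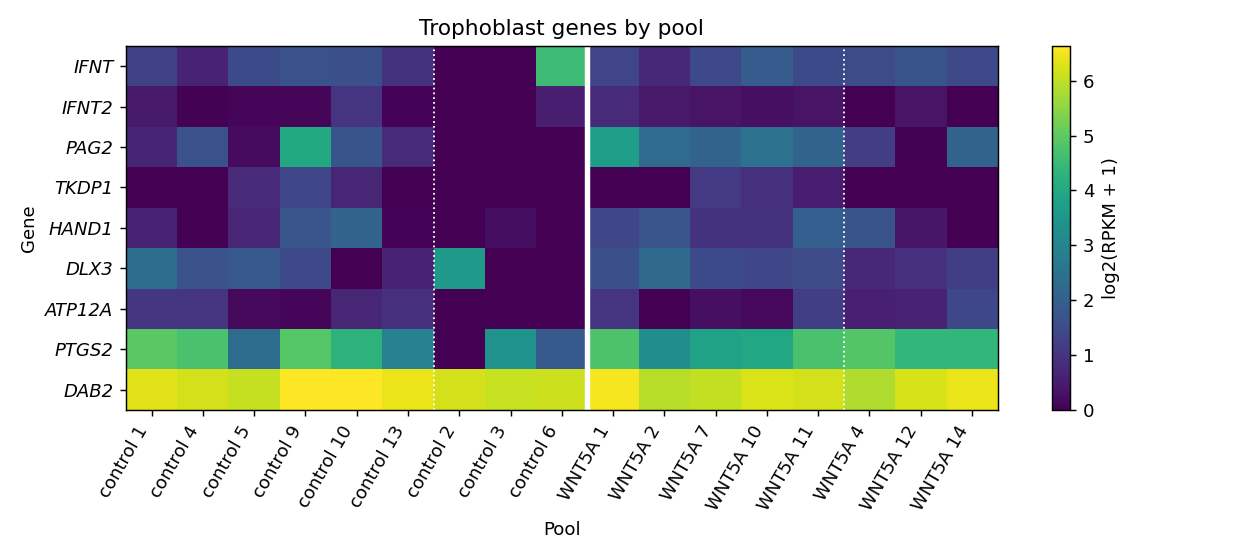
Level of each trophoblast gene on the log2(RPKM + 1) scale (colour) in each pool. Dotted lines set off control pools 2, 3 and 6 and WNT5A pools 4, 12 and 14, and the solid line separates the groups. DAB2 was high in all 17 pools, whereas control pools 2, 3 and 6 were at or near 0 for most other genes, apart from IFNT in control pool 6, DLX3 in control pool 2 and PTGS2 in control pools 3 and 6.

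Most members had few or no reads in the 3 controls with fewer genes detected. At 0.5 RPKM or more stood 2 of 9 members in control pools 2 and 3 and 3 of 9 in control pool 6. The other 6 controls had 6 to 8 of 9, and the WNT5A pools 5 to 8 of 9. WNT5A pool 12, one of the 3 with fewer reads, had the 5. The part of the number of genes detected in the differences between the groups was not tested beyond the values given without these pools.

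PTGS2 (ENSBTAG00000014127) encodes cyclooxygenase 2, the inducible enzyme that starts prostaglandin synthesis, and the bovine trophoblast is known as a source of prostaglandins. In controls it ran from 0 through a median of 9.61 to 29.4 RPKM, and in WNT5A pools from 8.54 through a median of 20.1 to 27.8 RPKM. Control pool 2 held no read, which allows at most 0.00535 RPKM, while control pool 1 held 16008 reads. Controls were spread over the whole range, with 4 of 9 below the lowest WNT5A pool and 2 above the highest. Means were 19.6 ± 7.05 RPKM under WNT5A (SD, n = 8) and 13.9 ± 11.7 RPKM without it (SD, n = 9), and the log2 difference was 1.01 ± 0.54 (SE; limma adjusted p = 0.690, 95% interval -0.12 to 2.13).

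The difference of PTGS2 was smaller without the controls with fewer genes detected. PTGS2 averaged 4.11 RPKM in control pools 2, 3 and 6, and 18.8 in the other 6 controls. Without those 3 pools the log2 difference was 0.25 (limma adjusted p = 0.943). It was 0.09 when WNT5A pools 4, 12 and 14 were left out as well. Left out alone, control pool 2 gave 0.60, control pool 6 gave 0.83 and control pool 3 gave 1.02. Control pools 2 and 6, but not 3, lay below every WNT5A pool. So did pools 5 (4.08 RPKM) and 13 (6.71 RPKM) among the other 6 controls.

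Cumulus cells around the oocyte also express PTGS2, so their markers were set beside it. Of 12 listed cumulus and granulosa genes 10 had rows, and 9 of these were below the filter. The rows together summed to 0 to 17.7 RPKM in controls, of which FOXL2 in 1 control supplied 17.7, and to 1.17 to 5.33 RPKM in WNT5A pools. The cumulus expansion gene TNFAIP6 had mean levels of 0.0559 RPKM without and 0.301 RPKM with WNT5A, and FSHR of 0.156 and 0.154 RPKM. Means were also higher with WNT5A for CYP19A1 (0.17 and 0.58 RPKM), NR5A1 (0.0222 and 0.221), VCAN (0.00541 and 0.0383), INHBA (0.105 and 0.171) and INHA (0.125 and 0.129). They were lower for FOXL2 (2.03 and 0.411), FST (0.0499 and 0) and AMH (2.11 and 1.26). CYP19A1 averaged 1.14 RPKM in WNT5A pools 4, 12 and 14 and 0.247 in the other 5, and TNFAIP6 0.492 and 0.187. AMH, the only one tested, had a log2 difference of -0.19 ± 0.46 (SE; limma adjusted p = 0.921). It became 0.38 without WNT5A pools 4, 12 and 14.

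Other genes of prostaglandin synthesis, transport and reception did not pass either. Of 15 rows 9 were tested, 7 with log2 differences above 0 and 2 below, and their median of 0.10 was near that of all genes tested. PLA2G4A, the phospholipase that releases arachidonic acid, had the smallest p, with a control mean of 0.691 ± 0.672 RPKM (SD, n = 9), a WNT5A mean of 1.29 ± 0.554 RPKM (SD, n = 8) and a log2 difference of 0.50 ± 0.26 (SE; limma adjusted p = 0.686). It became 0.04 after quantile normalization and 0.18 without the 6 libraries. PPARD, a nuclear receptor for lipid ligands, followed with 0.48 ± 0.37 (SE; limma adjusted p = 0.747). PPARD averaged 12.5 RPKM in WNT5A pools 4, 12 and 14 and 3.07 in the other 5, and its difference was -0.16 without those 3. The prostaglandin E synthase genes PTGES (50.4 and 77.3 RPKM in controls and WNT5A pools) and PTGES3 (231.9 and 238.2 RPKM) and the prostaglandin F synthase gene AKR1B1 (80.6 and 85.3 RPKM) were above PTGS2 in mean level, whereas the cyclooxygenase 1 gene PTGS1 averaged 0.680 and 0.452 RPKM. PTGES averaged 138 RPKM in WNT5A pools 4, 12 and 14 and 40.6 in the other 5, and 68.5 RPKM in control pools 2, 3 and 6 and 41.3 in the other 6.

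DAB2 (ENSBTAG00000016152) encodes a clathrin adaptor that carries receptors of the low-density lipoprotein family into the cell, and is expressed in trophoblast and extraembryonic endoderm of the mouse. In controls it ran from 65.4 through a median of 72.5 to 98.2 RPKM, and in WNT5A pools from 56.1 through a median of 73.4 to 91.8 RPKM. No pool stood apart, control pools 2, 3 and 6 included, whose mean was 69.1 RPKM, with 83.1 RPKM for the remaining 6. The log2 difference was -0.12 ± 0.14 (SE; limma adjusted p = 0.826), and its 95% interval of -0.41 to 0.18 was the narrowest among the 7 members tested. It was -0.20 without control pools 2, 3 and 6.

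Endocytic receptors and adaptors around DAB2 had 12 rows, of which 8 were tested. All 8 had log2 differences above 0 with a median of 0.38, and none passed. The median was 0.06 without control pools 2, 3 and 6, and near 0 without WNT5A pools 4, 12 and 14 as well. AP2A1, a subunit of the clathrin adaptor complex AP2, had 0.69 ± 0.34 (SE; limma adjusted p = 0.676) and averaged 23.7 RPKM in WNT5A pools 4, 12 and 14 and 10.3 in the other 5. Its difference was 0.06 without the 6 libraries. The receptor gene LRP2, whose product is a cargo receptor for DAB2, had a control mean of 10.6 ± 5.00 RPKM (SD, n = 9) and a WNT5A mean of 11.4 ± 4.85 RPKM (SD, n = 8).

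ATP12A (ENSBTAG00000014486), the catalytic subunit of the non-gastric proton and potassium pump, was scarce. It ran from 0 through a median of 0.101 to 1.08 RPKM in controls and from 0.0120 through a median of 0.530 to 1.69 RPKM in WNT5A pools. Control pools 2 and 6 held no read, and only 4 pools of each group reached 0.5 RPKM, so that it passed the filter with the smallest possible number of 8 pools. TKDP1 fell below the filter with 5 pools, and IFNT2 with 2. The log2 difference of ATP12A was 0.22 ± 0.25 (SE; limma adjusted p = 0.808, 95% interval -0.30 to 0.74). It was 0.00472 without control pools 2, 3 and 6, and -0.12 without WNT5A pools 4, 12 and 14 as well.

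Of 8 rows for related proton and sodium pump subunits 4 were tested. All 4 had log2 differences above 0 with a median of 0.54, beside 62.3% above 0 and a median of 0.11 for all genes tested, and none passed. The median of the list was 0.29 after quantile normalization, 0.04 without control pools 2, 3 and 6, and -0.02 without WNT5A pools 4, 12 and 14 as well. ATP1B2, a beta subunit, had 0.68 ± 0.43 (SE; limma adjusted p = 0.721). It became -0.03 without control pools 2, 3 and 6. The gastric pump genes ATP4A and ATP4B averaged at most 0.357 RPKM in either group.

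**Figure D4:**
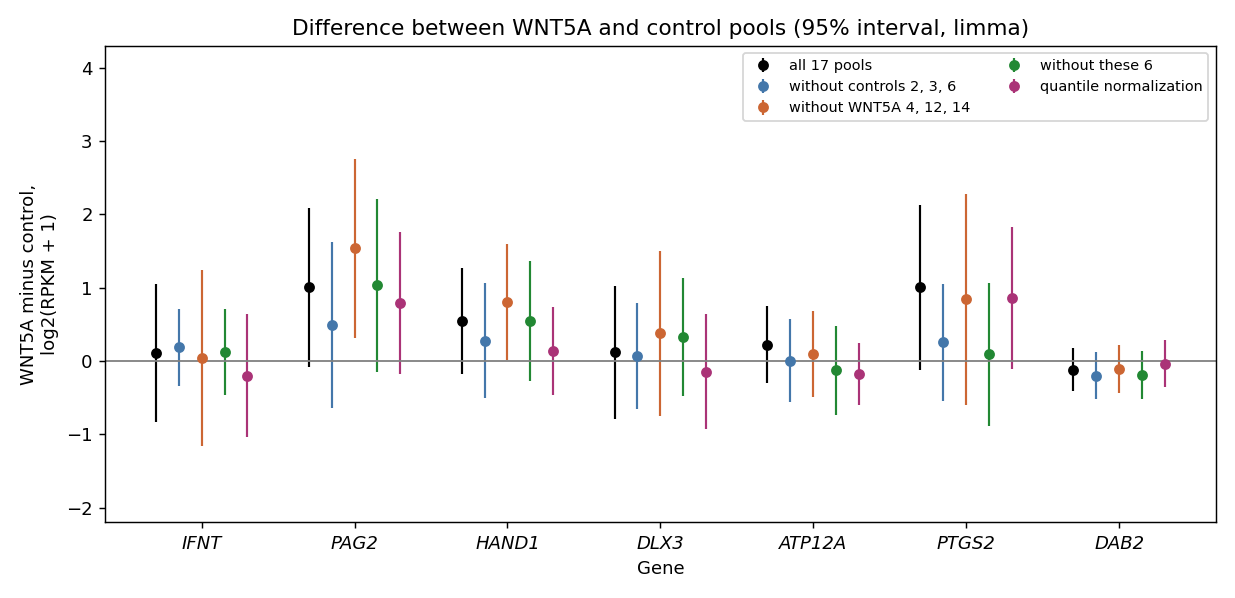
Difference between WNT5A and control pools on the log2(RPKM + 1) scale for the 7 trophoblast genes tested, with 95% intervals from limma. Colours are all 17 pools, pools left out as named, and quantile normalization. With all pools every interval includes 0, and PAG2 and PTGS2 are furthest from 0 at 1.004 and 1.005. Without control pools 2, 3 and 6 they were 0.50 and 0.25.

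PLAC8A and PLAC8B share the older name PLAC8 in the RefSeq annotation of ARS-UCD2.0 and were read after the table was seen. PLAC8A was abundant, with a control mean of 71.3 ± 21.3 RPKM (SD, n = 9), a WNT5A mean of 69.5 ± 16.0 RPKM (SD, n = 8) and a log2 difference of -0.02 ± 0.19 (SE; limma adjusted p = 0.981). PLAC8B stood at 0.507 ± 0.458 RPKM and 0.934 ± 0.873 RPKM in the same groups, with a log2 difference of 0.30 ± 0.26 (SE; limma adjusted p = 0.767). After quantile normalization these were 0.08 and -0.09.

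Regulators that act before or upon these genes were mostly present already. Of 15 rows for regulators of interferon tau and its receptor, 14 were tested, 8 with log2 differences above 0 and 6 below, and the median of 0.11 equalled that of all genes tested. It was -0.17 without control pools 2, 3 and 6. GATA2 (0.66 ± 0.29) and ETS2 (0.64 ± 0.34), the ETS factor known to activate bovine interferon tau promoters, had the smallest p (SE; limma adjusted p = 0.676 and 0.687). Without control pools 2, 3 and 6 and WNT5A pools 4, 12 and 14, GATA2 had -0.02 and ETS2 0.15. Among 16 trophectoderm regulators and keratins 13 were tested, 11 above 0 and 2 below, with a median of 0.40 that was 0.05 without control pools 2, 3 and 6. ASCL2 (0.78 ± 0.29) and KRT18 (0.43 ± 0.18) had the smallest p (SE; limma adjusted p = 0.673 for each), and had 0.41 and 0.29 without the 6 libraries. ASCL2 stood at 0.339 RPKM in controls and 1.25 in WNT5A pools, with no read in control pools 2, 3 and 6. EOMES and ELF5 averaged at most 0.131 RPKM in either group.

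Members differed in how much they varied within groups on the log2(RPKM + 1) scale. The residual spread of DAB2 on the log2 scale exceeded that of 1.66% of tested genes, whereas that of PTGS2 exceeded 96.7% and that of PAG2 95.04%. IFNT (86.7%), DLX3 (83.2%), HAND1 (64.2%) and ATP12A (31.2%) lay between. This scale compresses low values, so these ranks do not compare variation relative to level. ATP12A, for example, had 0.428 ± 0.477 RPKM in controls (SD, n = 9). The SD on the log2(RPKM + 1) scale was 1.36 in controls and 0.342 in WNT5A pools for IFNT, 1.66 and 0.561 for PTGS2, and 1.25 and 0.468 for DLX3. For IFNT the extreme controls were pools 2, 3 and 6, at 0, 0 and 22.4 RPKM. The other 6 controls ran from 0.563 to 2.16 RPKM of IFNT. Control pool 2 also held the lowest PTGS2 value and the highest DLX3 value. Whether the spread differed between the groups was not tested.

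The genes whose rank order over the 17 pools was most like that of a member are given by Spearman rho. Among 10928 other tested genes with a symbol, the highest rho was 0.944 for DLX3 with STK11, and 0.872 for DLX3 with DHDDS. PTGS2 was most like USP6NL (0.919) and BRPF3 (0.900), HAND1 most like DUSP6 (0.909) and HYAL3 (0.870), and PAG2 most like PCYOX1 (0.895) and CNOT8 (0.882). IFNT was most like UTP14A (0.877) and INO80 (0.847), ATP12A most like PAQR3 (0.856) and HSD17B4 (0.844), and DAB2 most like ZNF805 (0.814) and ELP4 (0.762). These values describe 17 pools that differ in depth and in the number of genes detected, and the top of many comparisons is high by selection.

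Markers of other cells, and of the embryo's own inner lineages, were set beside the members. Blood and immune markers (6 rows) summed to 16.4 to 78.1 RPKM in controls and 13.48 to 30.42 in WNT5A pools, with AIF1 (-1.18) and HBA (-0.53) of smallest p. In control pools 2, 3 and 6 the sum was 28.3 to 78.1 RPKM. All 4 tested had log2 differences below 0, with a median of -0.52, beside 0.11 for all genes tested. Without control pools 2, 3 and 6 and WNT5A pools 4, 12 and 14, AIF1 had -0.38 and HBA -0.18. The untested CD14 (0.277 and 0.696 RPKM) and CD3E (0.111 and 0.130 RPKM) had higher means in WNT5A pools. Sperm markers (3 rows) summed to 3.14 to 15.6 and 2.51 to 8.10 RPKM, with log2 differences of -1.17 for TNP1 and -0.45 for TNP2. Oocyte markers (7 rows) summed to 1.91 to 19.2 and 3.44 to 18.7 RPKM, with BMP15 (0.54) and ZP3 (0.16) of smallest p. Epiblast and hypoblast markers (7 rows) summed to 1967 to 2524 and 1345 to 2493 RPKM, with POU5F1 (-0.23) and PDGFRA (0.53) of smallest p. This sum was 1345 to 1474 RPKM in WNT5A pools 4, 12 and 14 and 2301 to 2493 in the other 5. POU5F1 averaged 1193 RPKM in the former and 2013 in the latter. None of the marker genes tested passed in limma, and the part of such cells in the members' values was not tested.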

How the data were processed

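RNA from 17 pools of 10 bovine morulae was made into stranded messenger RNA libraries, per the labels' protocols. The submitters' processing notes list FastQC, HISAT2, featureCounts and edgeR and the build ARS-UCD1.2, without roles. Tool versions, the strand setting used in counting and the gene annotation are not given here. The authors deposited RPKM (reads scaled to exon length and library size) for 17167 genes, with an exon length of each gene. Per the file headers, it also holds the authors' own comparison for each gene: the fold change and the mean CPM as log2, a likelihood ratio (score), and its p-value with FDR. No per-sample column was left unused.

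RPKM times exon length fell on whole multiples of 1 step per library for 100% of values (tolerance 0.001), and these multiples are given as reads. A count of 0 is given with a floor of 3 reads. Floors cover counting error only, because PCR copies carry no molecular identifiers here. Treatment and pool number were read from the labels.

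Since RPKM are not counts, groups were compared on log2(RPKM + 1) by limma 3.58.1 (R 4.3.3), two-sided, with eBayes set to trend and robust. It ran on all 17 libraries, for genes reaching 0.5 RPKM in 8 or more of them. P-values were adjusted by Benjamini-Hochberg over all genes tested, with a threshold of 0.05. Differences on the log2(RPKM + 1) scale understate changes of low genes. The test was checked on simulated data. These had the same spread in both groups and no pools with fewer reads or fewer genes detected, unlike the pools here. Rows below the filter were read from the same fit with no filter. Alternatives were another pseudocount (0.1), no filter, a stricter filter (1 RPKM), quantile normalization, rescaling to the library sum, no trend, a replicate block, and left-out libraries.

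The members, the gene lists and the libraries left out together were chosen with earlier results of these data known. Genes named beside the members were, per list, the 2 tested genes with the smallest p, and per member the 2 genes with the highest Spearman rho. Some genes that this rule names are not reported here. Interferon tau and PLAC8 rows outside the members were added after the table was seen. Figures used matplotlib 3.10.9 under Python 3.11.15. Sequences and chromosomes were not used here.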

Additional observations from a re-analysis of the deposited data

Results flagged for a closer look

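In 18 groups of pools, 9 trophoblast genes each in 2 groups, 3 values stood apart from the other pools of their group on the log2(RPKM + 1) scale by Dixon's criterion, and chance gives about 1 in 20. IFNT at 22.4 RPKM in control pool 6 lay far above the other controls, whose highest value was 2.16 RPKM. The same pool held no read of PAG2, HAND1, DLX3, TKDP1 or ATP12A. PAG2 at 15.2 RPKM in control pool 9 lay above the next control at 2.33 RPKM. IFNT at 0.676 RPKM in WNT5A pool 2 lay below the other 7 WNT5A pools, whose lowest value was 1.61 RPKM.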

How the results depend on the processing

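No trophoblast gene passed under any of the 244 alternatives run for the 9 rows (lowest limma adjusted p = 0.435), of which 217 kept the sign of the log2 difference and 27 changed it. PAG2, HAND1, PTGS2 and DAB2 kept their sign under all of theirs. The number of genes past the threshold among all genes, 1, became 0 with no filter, after quantile normalization, without control pools 2, 3 and 6, without WNT5A pools 4, 12 and 14, without all 6, and with the replicate block, and was 0 to 2 when single libraries were left out (2 without control library 5). After quantile normalization ATP12A had -0.18, IFNT2 -0.19, IFNT -0.20, DLX3 -0.15, ZP3 -0.20, PLAC8B -0.086 and PLAC8A 0.076. Without control pools 2, 3 and 6, ATP1B2 had -0.029 and PLAC8A 0.14. Without WNT5A pools 4, 12 and 14, TKDP1 had 0.18, PPARD -0.16, AMH 0.38, ZP3 -0.19, POU5F1 0.051 and PLAC8A 0.014. Without all 6, ATP12A had -0.12, TKDP1 0.023, GATA2 -0.021, PPARD -0.21, ATP1B2 -0.11, ZP3 -0.13, POU5F1 0.085, PDGFRA -0.13 and PLAC8A 0.17. TKDP1 had 0.053 with a pseudocount of 0.1.

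Libraries numbered 1, 2, 4 and 10 occur in both groups. Their deviations from the group means correlated across genes at 0.216, 0.0571, 0.0217 and 0.109. Among these libraries, controls 1 and 10 correlated best with the WNT5A library of their own number, and controls 2 and 4 did not. These values do not settle whether the numbers pair the pools, and the main fit left them unpaired. With the replicate block on these 8 libraries 0 genes passed, ATP12A had -0.26, DLX3 -0.40, TKDP1 0.042 and IFN-TAU 0.21, and the same 8 libraries without the block, chosen after seeing the data, gave 0 genes, -0.26 for ATP12A and -0.40 for DLX3. Leaving out single libraries gave -0.061 to 0.51 for IFNT, -0.045 to 0.40 for DLX3, -0.12 to 0.13 for TKDP1, -0.082 to 0.078 for PLAC8A, -0.19 to 0.044 for IFN-TAU, -0.021 to 0.37 for SSLP1, -0.33 to 0.058 for AMH and -0.024 to 0.38 for ZP3. The causes were not tested. Depth limited the scarce genes most in WNT5A pools 4, 12 and 14, where a count of 0 for IFNT2 allows up to 0.0641 RPKM.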
